A study of Mus musculus with 14 samples.

Results

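Gpx2, Srgn, Vax2, Aurkc, Rasgrp3, Ms4a4d, AA792892 and 2900011O08Rik are 8 of the 23174 gene rows of an RNA-seq table on the loss of Zfp281 in mouse cells. They were chosen on measured values of these same libraries. Gpx2 and 2900011O08Rik were chosen by the difference between knockout and wild-type lines averaged over the stages, and Srgn and Aurkc by the difference between the rescued line and the knockouts over the stages. Vax2 was chosen by its difference in embryonic stem cells, Rasgrp3 and Ms4a4d by their difference at the first passage of differentiation, and AA792892 by how its difference moved between those stages. Differences on which a gene was chosen are therefore given as a description. Where a call or an adjusted p appears for such a difference, it follows in part from the choice and is no test.

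The study followed embryonic stem cells (ESCs) as they were differentiated toward extraembryonic endoderm (XEN) cells, the stem cells of the yolk sac lineage, by polyA RNA-seq in 14 libraries. The lines carry the 129S1/SVImJ background. 3WT is wild type, 2.6Null and 3.34Null are Zfp281 knockouts, and 3.34Null-Rescue is 3.34Null with Zfp281 put back. Each of these 4 lines was sampled at 3 stages: ESC, cXENp1 following a 48 hour exposure to 0.01 µM retinoic acid with 10 ng/mL activin A, and cXENp3 after a further passage on inactivated fibroblast feeders and a return to gelatin. The wild-type XEN lines XENB1 (129S1) and XEN5 were the endpoint. Every line and stage is 1 library, so the replicates are lines, 2 without Zfp281 and 2 with it, and the knockouts are individual lines whose shared history the labels do not give. The cell line field numbers 2.6Null differently from its title, and the title is used here.

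Zfp281 is a zinc finger transcription factor that binds G-rich DNA and acts in the exit from pluripotency. The 8 genes do not form a pathway. Gpx2 is a glutathione peroxidase that removes hydroperoxides. Srgn is serglycin, the proteoglycan core of secretory granules in blood cells, first cloned from a yolk sac tumour. Vax2 is a homeobox factor of the ventral retina, Aurkc is the meiotic Aurora kinase, and Rasgrp3 is a diacylglycerol-responsive exchange factor that activates Ras. Ms4a4d belongs to a family of membrane proteins known mainly from immune cells. 2900011O08Rik, which RefSeq calls Bmerb1, encodes a small protein with a bMERB domain, a fold that binds Rab GTPases.

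RefSeq promoter windows, from 250 bases before to 50 bases after the start site (build GRCm38.p6), matched 5 of the 8 genes by symbol. Windows of Gpx2, which was higher in the null lines, and of Rasgrp3 and Ms4a4d, which were both highest at cXENp1 in the lines with Zfp281, are printed 5′ to 3′ in the direction of transcription. Capitals mark CG dinucleotides and, in Gpx2, a match to GGGGNGGGG.
Gpx2, chr12:76795505-76795804, minus strand: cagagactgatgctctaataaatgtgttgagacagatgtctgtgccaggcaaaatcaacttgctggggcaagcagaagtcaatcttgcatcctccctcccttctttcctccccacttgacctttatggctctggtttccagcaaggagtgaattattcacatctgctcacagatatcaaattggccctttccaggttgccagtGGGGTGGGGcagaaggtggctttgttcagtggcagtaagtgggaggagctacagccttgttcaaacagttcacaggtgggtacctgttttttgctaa
Rasgrp3, chr17:75435655-75435954, plus strand: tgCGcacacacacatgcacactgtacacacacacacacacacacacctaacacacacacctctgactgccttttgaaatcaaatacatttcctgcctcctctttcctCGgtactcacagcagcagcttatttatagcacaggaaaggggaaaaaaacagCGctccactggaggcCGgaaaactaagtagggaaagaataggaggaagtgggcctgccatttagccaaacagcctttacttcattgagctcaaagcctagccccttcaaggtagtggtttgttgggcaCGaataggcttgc
Ms4a4d, chr19:11536544-11536843, plus strand: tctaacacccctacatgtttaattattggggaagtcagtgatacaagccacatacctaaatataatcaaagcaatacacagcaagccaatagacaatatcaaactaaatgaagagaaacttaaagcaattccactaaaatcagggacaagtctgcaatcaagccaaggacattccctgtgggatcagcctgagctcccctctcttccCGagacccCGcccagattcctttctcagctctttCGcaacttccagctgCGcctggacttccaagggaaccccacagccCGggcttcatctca

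The 7 windows of the 5 genes (Srgn and Rasgrp3 have 2 each) held between 0 CG dinucleotides, in Gpx2, and 9, in the other Rasgrp3 window. All RefSeq promoters had a median of 7, with quartiles at 3 and 20. On either strand, none of the 7 windows held the G-rich word GGGGAGGGG, which 6.37% of 32851 promoters hold, or TGACNNNGC, the core of the antioxidant response element, which 12.4% hold. The looser GGGGNGGGG includes the former word, was added after the windows had been seen, and is in 22.4% of promoters. Its match in the Gpx2 window began at position -47 from the start site. These are matches of letters and say nothing of binding.

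Values are FPKM (fragments per kilobase of transcript, scaled to the size of the library), so the levels of different genes can be compared. Differences are of log2(FPKM + 1), which understates changes of low genes. Zfp281 itself read 25.1 to 38.6 FPKM in the 6 libraries of 3WT and 3.34Null-Rescue. It read 0 to 0.559 FPKM in 2.6Null and 1.29 to 3.96 FPKM in 3.34Null, so it was low in every library labelled null. Pluripotency markers summed to between 2732 and 3478 FPKM in ESCs, and all 8 fell at cXENp1. At cXENp3 they summed to 242 to 551 FPKM in the null lines and 2192 to 3773 FPKM in the lines with Zfp281. XEN markers at cXENp3 summed to 942 to 1168 FPKM in the null lines against 6.46 to 13.9 FPKM in the others, beside 1026 to 1411 FPKM in XENB1 and XEN5. 2.6Null stood apart earlier, with XEN marker sums of 62.7 FPKM as ESCs and 524 FPKM at cXENp1, where the other 3 lines lay between 40.7 and 49.5 FPKM. The null lines also differed from the others in Y-linked genes, which summed to 0 to 9.39 FPKM against 48.6 to 116 FPKM in ESCs, and the part of these differences in the results below was not tested.

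**Figure D1:**
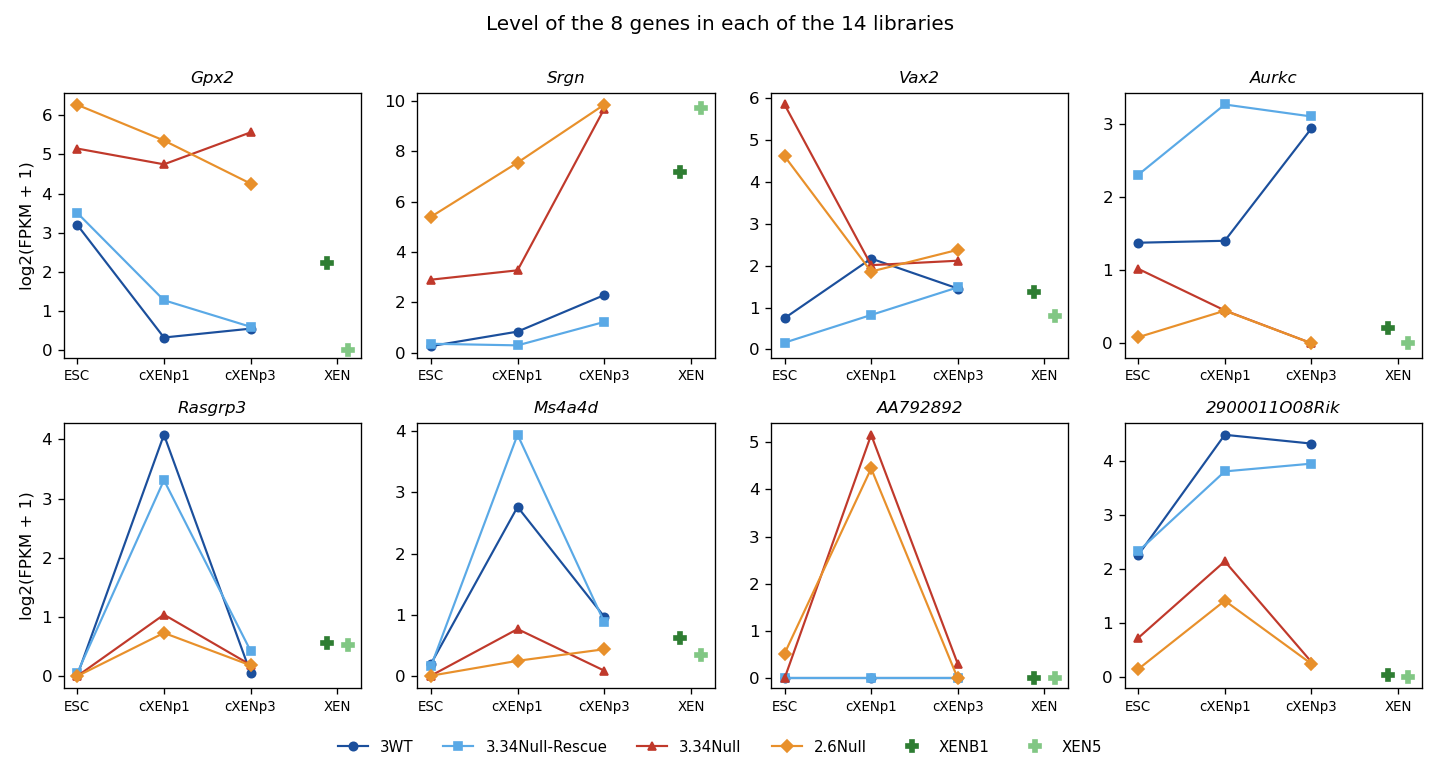
Level of each gene as log2(FPKM + 1) on the y axis, by stage on the x axis, with 1 point per library, lines joining the stages of a cell line, and plus signs for the established XEN lines. Gpx2 and 2900011O08Rik separate the orange and red null lines from the blue lines at all 3 stages, while Vax2 is far apart at ESC and Rasgrp3, Ms4a4d and AA792892 at cXENp1.

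The 8 genes did not share a time course. Gpx2, Srgn and 2900011O08Rik did not overlap between null and Zfp281-present lines at any of the 3 stages, nor did Aurkc, whose gap was small at ESC. Ms4a4d did not overlap either, but all its values outside cXENp1 were below 1 FPKM. The share of all genes that lack overlap between 2 and 2 lines is not given, so this is a description. In Vax2, Rasgrp3, Ms4a4d and AA792892 the group means were more than 1 apart on the log2 scale at a single stage of the 3. Null against present, 3 of the 8 passed adjusted p under 0.05 (limma, over all genes) at ESC, where 1.97% of the 13191 genes tested did, 5 at cXENp1 (0.485% of genes) and 4 at cXENp3 (41.9%). Those counts follow from the choice of the genes and are read no further.

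Gpx2 (chr12:77893322-77896541, mm9, as are the positions below) was high without Zfp281 throughout. In ESCs it read 76.1 FPKM in 2.6Null and 34.5 in 3.34Null, against 8.17 in 3WT and 10.3 in 3.34Null-Rescue. At cXENp1 it read 40.0 and 25.9 FPKM in 2.6Null and 3.34Null, against 0.247 and 1.42 in 3WT and 3.34Null-Rescue. At cXENp3 the null lines read 18.1 and 46.3 FPKM and the others 0.460 and 0.509. The log2 difference was 2.36 ± 0.50 (SE, n = 2 and 2) at ESC, 4.26 at cXENp1 and 4.34 at cXENp3. The pseudogene Gpx2-ps1, close in sequence, read at most 0.0897 FPKM. The growth of the difference from ESC did not pass the test: it was 1.90 at cXENp1 (adjusted p = 0.356, limma) and 1.98 at cXENp3 (adjusted p = 0.0691). Over the 4 lines Gpx2 fell by 1.61 ± 0.50 (SE) from ESC to cXENp1 (limma adjusted p = 0.0401, lines as blocks), by 2.88 in 3WT and by 0.40 in 3.34Null. XENB1 read 3.66 FPKM and XEN5 was listed at 0, and Gpx2 was lower in XEN lines than in ESCs (log2 difference -3.42 ± 0.94, limma adjusted p = 0.0209). Here and below, the ESC side of that comparison averages 2 null and 2 present lines, while both XEN lines are wild type. Both XEN lines also lay below the 8.17 and 10.3 FPKM of the present ESCs, a difference not tested alone. The XEN result rested on XEN5 and on 3.34Null: without XEN5 the difference was -2.31 (limma adjusted p = 0.182) and without the 3.34Null ESC library -3.21 (adjusted p = 0.0599).

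Of 5 other glutathione peroxidases that could be tested, 0 were called at ESC or cXENp1, where 1.97% and 0.485% of all genes were, so a count of 0 tells little. At cXENp3 Gpx3 and Gpx8 were higher and Gpx4, the lipid hydroperoxidase, lower in the null lines. Their median log2 difference was 0.33 at ESC and 0.00111 at cXENp1, against -0.00527 and 0.0357 over all genes. Gpx1 read 537 FPKM in 2.6Null ESCs, against 147 in 3.34Null, 107 in 3WT and 90.6 in 3.34Null-Rescue, and was not called (limma adjusted p = 0.118). Of 14 tested genes of the antioxidant response, which NRF2 drives, 0 were called at ESC and 2 were higher at cXENp1. Nqo1, a quinone reductase, read 121 and 57.4 FPKM in 2.6Null and 3.34Null against 9.87 and 5.05 in 3WT and 3.34Null-Rescue (log2 difference 3.38 ± 0.56, limma adjusted p = 0.0390). Txnrd1, thioredoxin reductase, read 311 and 400 FPKM against 158 and 133 (1.27 ± 0.23, adjusted p = 0.0481). At cXENp3 the list gave 2 higher and 2 lower calls, Nqo1 and Txnrd1 not among them.

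Srgn (chr10:61957176-61970503) was high without Zfp281 and rose further with XEN conversion. In ESCs it read 41.0 FPKM in 2.6Null and 6.46 in 3.34Null, against 0.201 in 3WT and 0.281 in 3.34Null-Rescue. At cXENp1 the values were 186 and 8.65 FPKM in 2.6Null and 3.34Null, against 0.789 and 0.226. At cXENp3 they were 918 and 817 FPKM, against 3.88 and 1.34. The null lines stood above the others at each stage but lay far apart from each other until cXENp3, with a log2 difference from the present lines of 3.84 at ESC and 4.84 at cXENp1. The growth of the difference from ESC to cXENp3, 4.17, had a limma adjusted p of 0.0904, and of 0.0313 with the line as block. Between the null lines Srgn differed by 2.31 (95% interval 0.06 to 4.56, limma adjusted p = 0.822) over the stages. XEN5 read 835 FPKM and XENB1 142, and XEN lines were above ESCs by 6.20 ± 1.43 (limma adjusted p = 0.0104), which fell to 4.93 (adjusted p = 0.106) without XEN5. The change from cXENp1 to cXENp3 averaged 2.77 (limma adjusted p = 0.0902), with 6.41 in 3.34Null and 0.93 in 3.34Null-Rescue.

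XEN markers moved with Srgn. The early null libraries with the most Srgn, those of 2.6Null, were those with the high XEN marker sums given above. In 3.34Null at cXENp1 the XEN marker sum was 40.7 FPKM, below the 45.1 and 49.5 FPKM of the lines with Zfp281, while Srgn there was 8.65 FPKM against 0.226 and 0.789. Single markers went both ways there. Gata4, Sox17, Cubn and Amn were above both lines with Zfp281, Gata6 and Dab2 below both, and Sox7, Foxa2 and Pdgfra between. In ESCs the sum was 7.79 FPKM in 3.34Null against 2.07 in 3WT and 2.78 in 3.34Null-Rescue. The part of XEN cells in Srgn was not tested. Markers of blood cells, another known source of serglycin, summed to 62.2 to 86.2 FPKM in null ESCs against 36.5 to 43.9 FPKM, and their part was not tested. Laptm5 and Cd68 made up most of these sums, while Ptprc, Cd52, Tyrobp, Lyz2 and Csf1r read at most 0.114 FPKM in ESCs. Fcer1g read 1.05 and 1.97 FPKM in 2.6Null and 3.34Null ESCs, against 0 in 3WT and 0.140 in 3.34Null-Rescue. Laptm5 and Cd68 were also higher in both null lines. Coro1a, Cd79a and Cd3e overlapped between the groups, and Hba-a1, at most 0.566 FPKM, was lower in both null lines. In bulk RNA more cells of a type and more RNA per cell cannot be told apart. Of 15 other proteoglycan core proteins, Agrn (agrin) was lower in null ESCs (-2.02 ± 0.23, limma adjusted p = 0.0101), none was called at cXENp1, and 6 were higher and 2 lower at cXENp3.

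**Figure D2:**
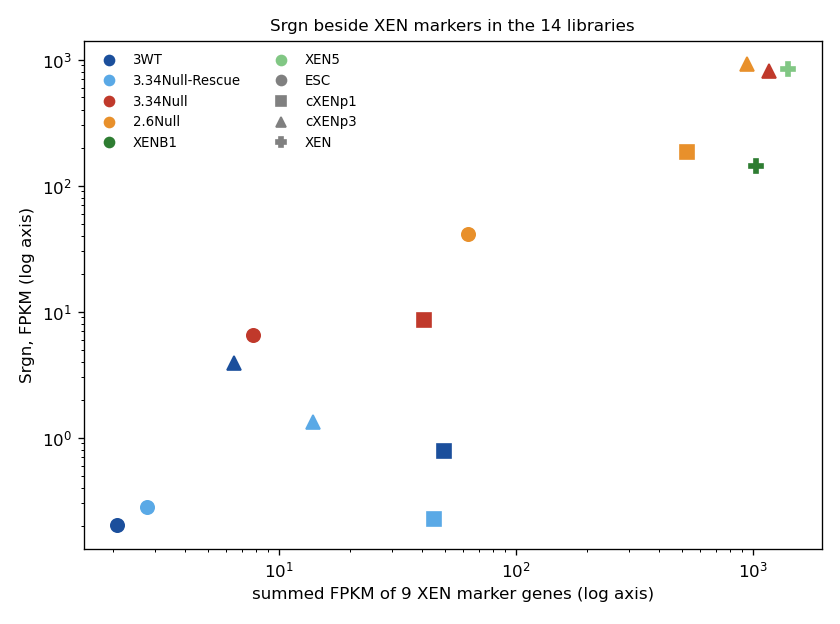
Srgn in FPKM (y axis, log scale) against the summed FPKM of 9 XEN marker genes (x axis, log scale), with 1 point per library, colour for the line and shape for the stage. 3.34Null at cXENp1 sits level with 3WT and 3.34Null-Rescue in the XEN marker sum, though not in each marker, and above both in Srgn.

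2900011O08Rik (chr16:13981795-14101587) was low without Zfp281. In ESCs it read 3.78 FPKM in 3WT and 4.01 in 3.34Null-Rescue, against 0.107 in 2.6Null and 0.651 in 3.34Null. At cXENp1 it read 21.4 and 13.0 FPKM in 3WT and 3.34Null-Rescue, against 1.67 and 3.42 in the null lines. At cXENp3 the lines with Zfp281 held 19.0 and 14.5 FPKM while 2.6Null and 3.34Null read 0.186 and 0.215. All 4 lines rose from ESC to cXENp1, by 1.27 to 2.23, for a mean of 1.60 ± 0.40 (limma adjusted p = 0.0175). The difference between null and present lines widened from -1.86 at ESC to -3.87 at cXENp3, and that widening of -2.02 ± 0.48 passed the test (limma adjusted p = 0.0178, where 22.6% of genes were called). With a pseudocount of 0.1 the adjusted p was 0.0574, and it no longer passed without 3WT (-1.80, adjusted p = 0.200) or without 3.34Null-Rescue (-2.24, adjusted p = 0.117). XENB1 read 0.0224 FPKM and XEN5 was listed at 0 (XEN against ESC -1.35, limma adjusted p = 0.116). Of 7 tested relatives with MICAL or bMERB domains, 0 were called at ESC or cXENp1, and at cXENp3 Mical2 and Micall1 were higher and Mical1 lower. The gene overlaps the Ifitm7 row, which shares 259 identical bases with it and read at most 0.545 FPKM.

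Aurkc (chr7:6948096-6955802) was also lower without Zfp281, and most at cXENp3. ESC values were 1.60 FPKM in 3WT and 3.95 in 3.34Null-Rescue, against 0.0586 in 2.6Null and 1.03 in 3.34Null. At cXENp1 they were 1.65 and 8.67 FPKM against 0.362 and 0.365, and at cXENp3 6.71 and 7.63 FPKM against rows listed at 0 in both null lines. In ESCs 3WT and 3.34Null were close, and the log2 differences by stage were -1.29, -1.89 and -3.03. The widening at cXENp3 was -1.74 (limma adjusted p = 0.130). XENB1 read 0.156 FPKM and XEN5 was listed at 0 (XEN against ESC -1.09, limma adjusted p = 0.135). Zfp281 read 10.6 and 12.5 FPKM in XENB1 and XEN5, so low Aurkc was not confined to lines without Zfp281. Rescued cells lay above wild type at every stage, by 0.99 on average. Aurkc was chosen by the difference between the rescued line and the knockouts, which favours a high rescued value, so this is a description. Germline markers moved the same way at cXENp3, with sums of 4.11 to 7.15 FPKM in null lines against 47.0 to 48.0 FPKM. There 8 of 9 tested were lower, as were 7 of 8 pluripotency markers, where 41.9% of all genes were called. At ESC and cXENp1 0 germline markers were called, and ESC sums overlapped (18.2 to 71.3 FPKM in null lines, 54.9 to 64.5 FPKM in the others). The part of germline genes was not tested. Of 7 other Aurora kinase and chromosomal passenger genes, 0 were called at ESC or cXENp1, against 1.97% and 0.485% of all genes, and Bora and Cdca8 were lower at cXENp3, against 41.9%. Aurkc itself did not pass at ESC or cXENp1, stages among those on which it was chosen, so this is a description. Transcripts of Aurkc have close copies, Gm12463 at 99.2% identity over 849 bases and Gm7789 over 1405 bases, so its values are uncertain.

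Vax2 (chr6:83642800-83688298) differed in undifferentiated cells. ESC values were 23.5 FPKM in 2.6Null and 56.7 in 3.34Null, against 0.678 in 3WT and 0.119 in 3.34Null-Rescue. At cXENp1 the order was lost, with 2.63 and 3.04 FPKM in the null lines between the 3.50 of 3WT and the 0.770 of 3.34Null-Rescue. At cXENp3 the null lines read 4.21 and 3.34 FPKM and the others 1.74 and 1.80. The log2 difference was 4.78 at ESC, and at the stages not used to choose the gene it was 0.44 (95% interval -0.63 to 1.51, limma adjusted p = 0.823) and 0.78 (-0.29 to 1.85, adjusted p = 0.214). Vax2os, transcribed from the same locus, read 4.56 and 12.4 FPKM in null ESCs against 0.843 and 0.797 in 3WT and 3.34Null-Rescue, and was called there (2.25, limma adjusted p = 0.0318). The stranding of the authors' quantification is not given in the sources used here, so reads of Vax2 and Vax2os cannot be told apart. None of 5 tested eye field genes was called at ESC or cXENp1, and Otx2 and Pax6 were lower in null cXENp3 cells.

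Rasgrp3 (chr17:75835245-75928393) and Ms4a4d (chr19:11611339-11632956) were highest at cXENp1 in the lines with Zfp281. Rasgrp3 was at most 0.0365 FPKM in any ESC library, then 15.9 FPKM in 3WT and 8.92 in 3.34Null-Rescue at cXENp1, against 0.658 in 2.6Null and 1.05 in 3.34Null. By cXENp3 all 4 lines lay between 0.0371 and 0.343 FPKM. Ms4a4d was at most 0.143 FPKM in ESCs, then 5.79 FPKM in 3WT and 14.4 in 3.34Null-Rescue, against 0.184 and 0.698 in 2.6Null and 3.34Null, and 0.0593 to 0.955 FPKM at cXENp3. At cXENp1 both genes were lower in the null lines, with a log2 difference of -2.81 for Rasgrp3 and -2.85 for Ms4a4d. In 2.6Null, Ms4a4d did not peak there but read 0, 0.184 and 0.351 FPKM in stage order. Both genes passed the filter of 1 FPKM in 2 libraries through cXENp1 libraries alone, 3 for Rasgrp3 and 2 for Ms4a4d, and were chosen on that stage. Their changes into and out of cXENp1 are therefore a description: over the 4 lines Rasgrp3 changed by 2.27 and then -2.08, and Ms4a4d by 1.84 and then -1.34. At the other stages, where every value was below 1 FPKM, the difference between null and present lines was -0.03 and -0.05 for Rasgrp3 and -0.17 and -0.66 for Ms4a4d, and such low values leave little room for one. Blood cell markers at cXENp1 summed to 7.06 to 8.32 FPKM in the lines with Zfp281 and 17.6 to 19.6 FPKM in the null lines. Ptprc, Tyrobp and Hba-a1 among them were listed at 0 in every line at that stage. Laptm5, Cd68, Coro1a, Fcer1g, Csf1r, Cd52 and Cd79a were higher in both null lines than in both others. Cd3e and Lyz2 overlapped between the groups. The part of blood cells in Ms4a4d was not tested.

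Of 5 other Ras exchange factors, Rasgrp2 was lower in null ESCs (1.64 and 2.41 FPKM in 2.6Null and 3.34Null against 15.6 and 15.2, limma adjusted p = 0.0136), 0 were called at cXENp1, against 0.485% of all genes, and at cXENp3 Sos2 was higher and Rasgrp1 and Rasgrp2 lower. None of the 14 other Ms4a genes in the table reached 1 FPKM in 2 libraries of the course, so none was tested.

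AA792892 (chr5:94806365-94813359) showed the reverse, a peak at cXENp1 in the null lines. It read 20.7 FPKM in 2.6Null and 34.5 in 3.34Null at cXENp1. It was listed at 0 in 3WT and 3.34Null-Rescue at all 3 stages and in both XEN lines. Outside cXENp1 the null lines read at most 0.440 FPKM. It passed the filter through those 2 libraries alone, so its lack of a difference at cXENp3 (0.15) follows from values near 0. The gene has near-identical copies, among them Gm3259 and C87414 at 95.9% identity over 1787 bases; those rows were listed at 0 or at most 0.0209 FPKM, so how the authors' quantification split shared reads makes the level uncertain. The nearest gene in the table on its left side, A430089I19Rik, 70544 bases away, had the same pattern, with 4.62 and 8.82 FPKM in 2.6Null and 3.34Null at cXENp1 against 0.0801 and 0 (limma adjusted p = 0.0015). Genes of the 2-cell-like state, a rare early embryo-like programme of ESC cultures, moved at the same stage: all 6 tested rose from ESC to cXENp1. Their sum at cXENp1 was 187 to 325 FPKM in null lines against 76.2 to 159 FPKM, with 0 of 6 called, and its part in AA792892 was not tested.

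**Figure D3:**
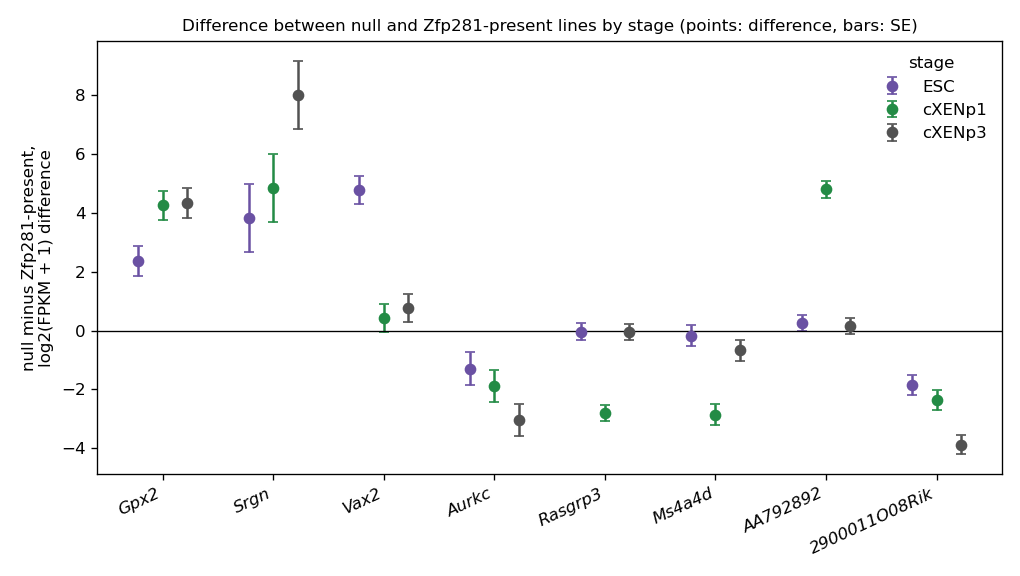
Null minus Zfp281-present difference of log2(FPKM + 1) (y axis) for each gene (x axis), coloured by stage, with points for the difference between 2 and 2 lines and bars for the SE. Vax2 is far from 0 at ESC, Rasgrp3, Ms4a4d and AA792892 at cXENp1, and the other 4 at several stages.

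Among stage changes over all 4 lines, 4 of the 8 genes were called from ESC to cXENp1, Gpx2 down and Rasgrp3, Ms4a4d and 2900011O08Rik up, where 28.5% of all genes were. Those of Rasgrp3 and Ms4a4d follow from their choice, which leaves Gpx2 and 2900011O08Rik. AA792892 rose by 2.27 on average, through the null lines alone. These calls lean on lines and on description codes. None of the 8 was called without 3WT, without 3.34Null-Rescue, or with the code prefix as a term, and 1 was without the line as block. The codes begin JH for the ESC libraries of 3WT, 3.34Null and 3.34Null-Rescue and XH for the other 11, so only 2.6Null compares ESC with cXENp1 within a prefix. In that line Gpx2 changed by -0.91, Rasgrp3 by 0.73, Ms4a4d by 0.24 and 2900011O08Rik by 1.27. From cXENp1 to cXENp3 limma called 0 of the 8, against 7.45% of genes; Srgn, Rasgrp3, Ms4a4d and AA792892 had an unadjusted p under 0.05. The difference between null and present lines changed between ESC and cXENp1 for 0.0379% of genes, 5 in all, AA792892 among them by choice.

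With Zfp281 put back, most of these genes lay nearer to wild type than to 3.34Null. In 14 gene and stage pairs 3WT and 3.34Null differed by at least 1 on the log2 scale, and in 14 of 14 the rescued line was nearer to 3WT than to 3.34Null, its parent. Over all 24 pairs it was nearer in 21. Because the rescued line was among those on which the genes were chosen, this is a description. Rescue against 3WT called 0 of the 8 genes and 0% of all genes (limma; 60 of 13191 had an unadjusted p under 0.05), which does not show that they are equal: the 95% interval was -0.87 to 1.74 for Gpx2 and -2.76 to 1.75 for Srgn. The knockouts did not differ by the test in any of the 8 genes either (0.0303% of genes called), Srgn having the only unadjusted limma p under 0.05, at 0.0452. Both of these comparisons have 1 line per side, so the 3 stages of a line stood in for replicates. 3.34Null, which keeps some Zfp281 reads, was nearer to 3WT than 2.6Null was in 15 of 24 pairs. Against ESCs, null and present lines together, the XEN lines differed by the test in 2 of the 5 genes that could be tested. These were Gpx2 and Srgn, and 41.9% of 12372 genes were called.

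For each gene the 3 genes with the most similar profile were taken by Pearson's r of log2(FPKM + 1) over the 14 libraries, which share lines and stages, so r is only a description. Srgn was closest to genes of the secretory pathway: Rpn1 (r = 0.971), of the oligosaccharyltransferase, Sec61a1 (0.971), of the translocon, and Sec24c (0.971), of the COPII coat. Rpn1 read 89.0 and 60.9 FPKM in null ESCs against 27.3 and 25.5, and 168 and 245 FPKM at cXENp3 against 31.0 and 29.7. Rasgrp3 was closest to Lhx1 (0.983), a LIM homeobox factor, Itih5 and Astn1 (0.979), and Itih5 was also closest to Ms4a4d (0.938). Lhx1 read 7.74 FPKM in 3WT and 3.18 in 3.34Null-Rescue at cXENp1, against 0.790 and 1.03 in 2.6Null and 3.34Null. AA792892 was closest to Slc10a6 (0.995), a transporter of sulfated steroids, H2-M10.4 (0.993), a class I histocompatibility gene, and Snora21 (0.990), a small nucleolar RNA. H2-M10.4 read 5.25 and 4.90 FPKM in the null lines at cXENp1 and was listed at 0 in 3WT and 3.34Null-Rescue there. Aurkc was closest to Steap3 (0.935), a metalloreductase, and 2900011O08Rik to Rnf145 (0.958). Gpx2 (1700030C10Rik, 0.884, and Lrp8, a receptor of selenoprotein P, 0.881) and Vax2 (Gm8909, 0.917) had looser likenesses.

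**Figure D4:**
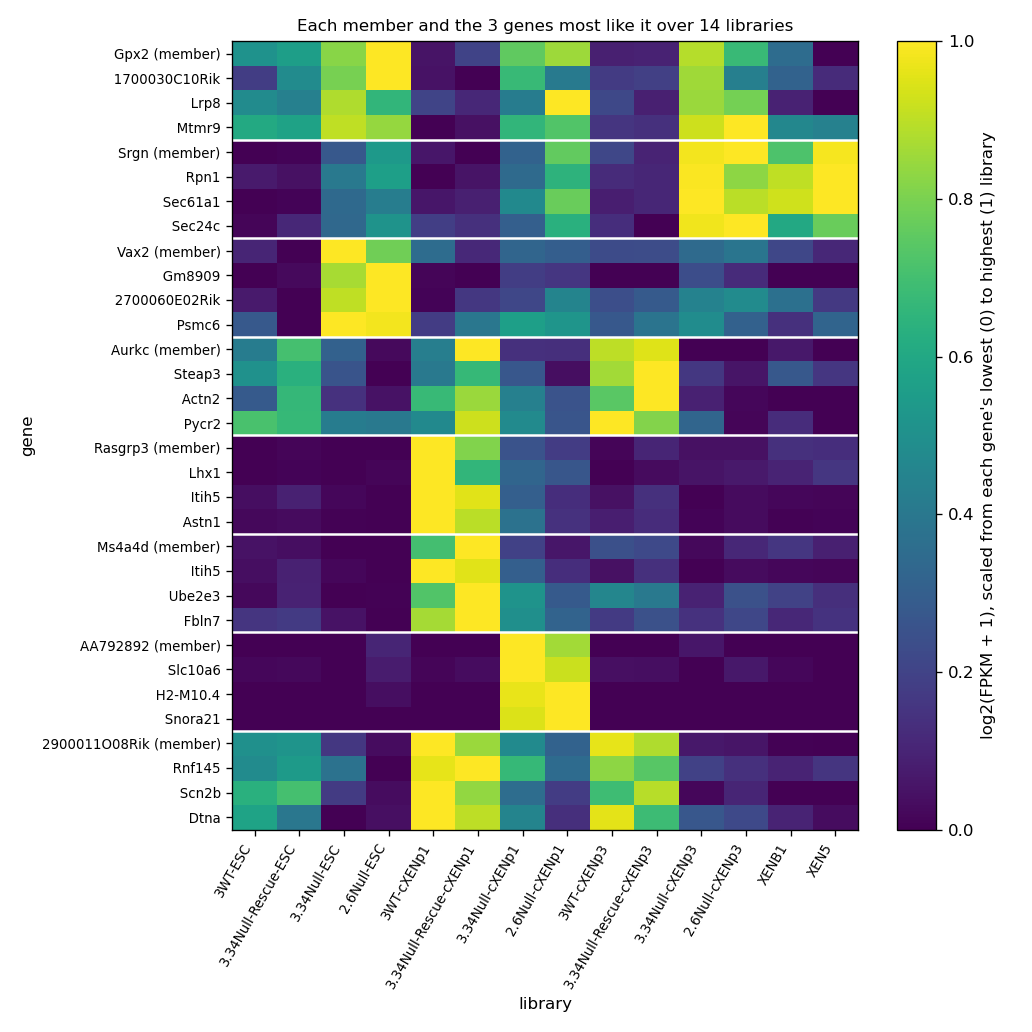
Log2(FPKM + 1) of each of the 8 genes and of the 3 genes most like it (rows), scaled from each gene's lowest (0) to highest (1) library, in the 14 libraries (columns). The rows of Rasgrp3 and of AA792892 show opposite cXENp1 peaks, bright in the lines with Zfp281 for the former and in the null lines for the latter.

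Of 32 listed neighbours of the 8 loci, the nearest 2 on each side, 19 could be tested, and 1 was called in null against present lines at ESC (Vax2os) and 1 at cXENp1 (A430089I19Rik). The share of all genes called was 1.97% and 0.485% at those stages. At cXENp3, where 41.9% of all genes were called, 7 of the 19 were, among them Rab15 next to Gpx2, higher by 2.56 (limma adjusted p = 0.000303).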

How the data were processed

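PolyA RNA-seq libraries with paired reads of 150 bp were aligned and quantified by the authors with STAR 2.5.3 and Cufflinks 2.1.1 on build mm9, per the submitters' processing notes. The deposited values were taken as FPKM, since they are not whole, never negative and summed to between 424406 and 718138 per library. No steps of 1 fragment were found, so the depth is unknown and no detection limit was set. Values were analysed as log2(FPKM + 1) with limma 3.58.1 in R 4.3.3 (trend, Benjamini-Hochberg over all genes, adjusted p under 0.05), on the 13191 genes with at least 1 FPKM in 2 of the fitted libraries, and tested on simulated data. Null and present lines were compared within each stage, with a common residual spread. Stage averages used the line as block, because the same line was sampled at each stage. For null against present, and for XEN against ESC, p-values measure the spread between lines of a group, with 1 library per line and stage. The null against present fits pool that spread over the stages without a term for the line. They thus count the same lines at each stage as independent, and the rescued line derives from a knockout, so replication can be overstated. For stage averages and for line against line, p-values measure how stage changes vary between lines. The 8 genes, the gene lists and the tests were chosen with earlier results of these data known. Named genes were the 8, Zfp281, list genes when called or at an extreme, the 3 likest by r, and the nearest 2 neighbours on each side. Close copies were found by aligning GENCODE M21 transcripts.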

Additional observations from a re-analysis of the deposited data

Results flagged for a closer look

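In 3 genes the difference between null and Zfp281-present lines itself differed between stages by limma. For AA792892 it was larger at cXENp1 than at ESC by 4.53, and for Vax2 smaller at cXENp3 than at ESC (-4.00); both genes had been chosen for differences at those stages, so these are descriptions. For 2900011O08Rik, chosen on an average over stages, it widened from ESC to cXENp3 (-2.02). No group had the 4 samples that a check for single outlying libraries needs.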

How the results depend on the processing

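No difference that had passed its test changed direction under the alternatives run, while some small ones that had not passed did, such as Vax2 in null against present lines at cXENp1 (-0.23 without 3.34Null-Rescue). Counts of the 8 genes called moved as follows. Those for null against present follow from the choice of the genes, so their changes only describe how the fits depend on the processing. Null against present at ESC (3) gave 1 when every gene with any value above 0 was kept, 1 with the JH or XH prefix added to the model, and 0 to 4 when each line was left out. At cXENp1 (5) the count was 2 with a pseudocount of 0.1, 1 with a mean of at least 5 FPKM required, which removes low genes, and 1 to 5 without a line. The ESC to cXENp1 change (4) gave 2 with that mean, 2 after quantile normalization (Gpx2 and Ms4a4d lost), 0 with the prefix and 0 to 3 without a line. Without the line as replicate block it gave 1, and the block added to the stage interactions gave 1 and 3 calls, the addition being Srgn at cXENp3 (4.17, limma adjusted p = 0.0313). The change from cXENp1 to cXENp3 (0) gave 2 with a pseudocount of 0.1, Srgn and Rasgrp3, and 0 to 1 without a line. The interaction at cXENp1 (1) gave 0 with the pseudocount of 0.1, 2 with any value above 0, 0 with the mean of 5 and 0 to 0 without a line. The interaction at cXENp3 (2) gave 0 to 4 without a line, and XEN against ESC (2) 0 to 4 without a library, Aurkc and 2900011O08Rik being added without 2.6Null. In these fits the remaining line of a group was assumed to vary like the others, and fewer samples leave fewer genes past the filter. Without 3.34Null, the Srgn difference between null and present lines was 5.08 at ESC and 6.98 at cXENp1, against 3.84 and 4.84 with it. That fit leaves 1 null line and Srgn was chosen on these libraries, so this is a description. With all lines Srgn was called at neither stage. Gpx2 at ESC, a stage among those on which it was chosen, was no longer called after quantile normalization, which is a description too. The counts for null against present at cXENp3, rescue against 3WT and 2.6Null against 3.34Null moved by less than 1.5 times under every alternative run. Quantile normalization put the median of all genes at -0.10 at cXENp3, against 0.01. Causes were not tested. Unknown depth limits all values near 0.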
